A study of Mus musculus with 9 samples.

Results

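Rab GTPases are small membrane-bound switches that direct vesicle traffic. The genes described here are all those of the array whose symbol is Rab followed by a number and, for paralogs, a letter, without the proteins that only bind Rabs. The rule found 59 genes of 18193 with a named probe set, each read by its brightest probe set over 9 arrays. Levels came from Affymetrix arrays of cells freshly sorted from untreated, naive BALB/c mice that were 6 to 8 weeks old. The groups were CDC (conventional dendritic cells), NK (natural killer cells) and IKDC (interferon-producing killer dendritic cells), with 2 arrays each from spleen and 1 each from lymph node. The labels give no sorting markers, sex or number of animals, so the p-values measure only the spread between these arrays. How many animals that spread covers is not known.

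Each Rab protein is loaded with GTP by an exchange factor, recruits effectors such as tethers and motors to 1 kind of membrane, and is switched off by a GTPase-activating protein, usually of the TBC family. Prenyl groups anchor it, and escort proteins return it to the cytosol. In NK cells the best known members are those that bring cytotoxic granules to the plasma membrane. In dendritic cells, members on endosomes, phagosomes and the Golgi serve antigen uptake, processing and presentation.

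Levels below are log2 of quantile-normalized intensity after an offset of 6.49 units, and differences are on that log2 scale with the standard error (SE) from limma. A gene was tested when its mean level over the 9 arrays reached 5.31, the 40th percentile of all genes. That kept 47 of the 59 Rab genes among 10916 tested genes, and a gene was called at a limma adjusted p below 0.05. Where the lower group lay below 5.31, the fold was computed with 5.31 in its place and is a lower bound, written as at least. Probe sets differ in brightness, so levels are compared between arrays for 1 gene and never between genes.

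The marker genes followed the labels, with qualifications that touch the results. Summed intensity of 13 NK marker genes was 47961 to 61480 in spleen NK, 30507 to 31454 in spleen IKDC and 804 to 1795 in spleen CDC. For 14 dendritic cell markers it was 25825 to 28152 in spleen CDC, 6507 to 8338 in NK and 5733 to 6425 in IKDC. Among them Itgax (CD11c) read 11.32 and 7.27 on spleen NK arrays 1 and 2, and 11.03 and 11.24 on the spleen IKDC arrays. The MHC class II gene H2-Aa, outside that list, read 10.89 and 6.62 in spleen NK and 12.01 and 10.90 in spleen IKDC. The lymph node IKDC array stood apart: 7 plasmacytoid dendritic cell markers summed to 11701 there and to at most 1472 on the spleen IKDC arrays, with Ccr9 at 11.78, Tcf4 at 11.53 and Siglech at 10.78. Spleen NK array 2 carried mast cell, basophil and platelet genes, such as Cpa3 at 9.41 and Pf4 at 9.60. The lymph node NK array had Cpa3 at 7.44 and Ms4a2 at 7.48. Summed T cell markers were 2843 in lymph node NK and 2143 in lymph node IKDC. In spleen they were 761 to 1090 in NK and 1071 to 1521 in IKDC. Spleen arrays 1 of the 3 cell types had Xist at 6.02 to 6.36 and the other 6 arrays at 11.43 to 12.49. The Y-linked gene Eif2s3y read 8.84 to 9.40 on those arrays 1 and 2.76 to 4.28 on the other 6. By these genes spleen arrays 1 were male and the other 6 arrays female. Replicate number and sex therefore cannot be told apart in spleen. The proliferation gene Mki67 split the same way, at 10.97 to 11.91 on spleen arrays 1 and 8.63 to 9.86 on the other 6. Because each array pools sorted cells, fewer cells of a type and less RNA per cell cannot be told apart.

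A group of 6 Rab genes differed between CDC and both NK and IKDC, in spleen a share of the family near that of all tested genes. In spleen IKDC against CDC, Rab27b and Rab37 were higher and Rab30, Rab7b, Rab32 and Rab43 were lower. That is 6 of 47 tested Rab genes against 10.3% of all tested genes (4.75% higher and 5.6% lower). Among them Rab27b, Rab30 and Rab7b passed the filter through the groups where they were high and so had to differ. The same 6 were called with the same signs in spleen NK against CDC, where 13.5% of tested genes were called (6.54% higher and 6.97% lower). Both comparisons share the CDC arrays. The 6 were again called in lymph node IKDC against CDC, where 3.98% of tested genes were called (2.09% higher and 1.89% lower), and in lymph node NK against CDC, where 6.16% were (2.93% and 3.22%). These lymph node calls rest on lone arrays, taken to vary as the spleen arrays did. The lymph node IKDC calls of Rab30 and Rab32 were lost on leaving out either spleen CDC array or either spleen NK array, with limma adjusted p from 0.0548 to 0.0953. The lymph node NK call of Rab32 was lost without either spleen CDC array (limma adjusted p = 0.0631 and 0.0639). In lymph node IKDC against CDC, Rab27b and Rab30 were not called with the mean over the probe sets of a gene, and Rab32 was not called with no filter on low values.

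The direction was mixed within the family. The median difference over the 47 was -0.14 for spleen IKDC minus CDC, against 0.04 over all tested genes, and it was 0.10 with no filter on low levels, so its sign depended on the filter. For NK minus CDC it was 0.05, against 0.06 over all tested genes. Of the 47, 36 differed by less than 2-fold in IKDC minus CDC and 36 in NK minus CDC, against 79.5% and 78.3% of all tested genes. The 3 CDC arrays lay apart from the 6 others for 16 Rab genes against 23.9% of tested genes, 9 with CDC higher (11.2%) and 7 with CDC lower (12.7%).

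**Figure D1:**
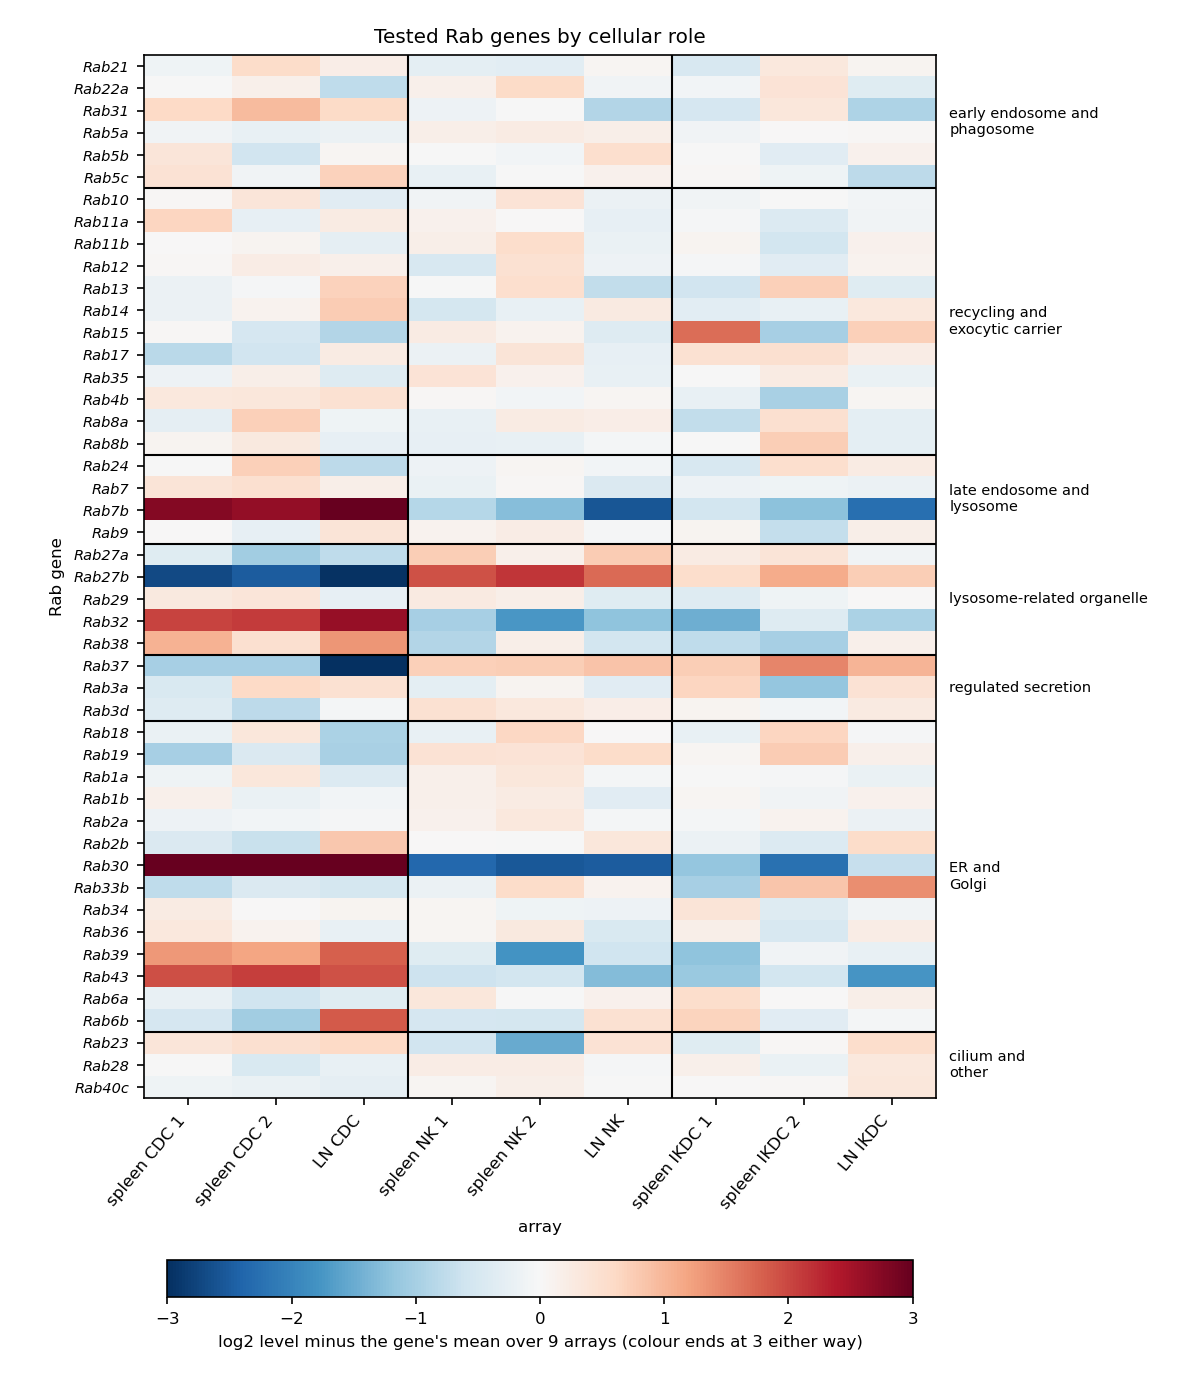
Log2 level of each of the 47 tested Rab genes on the 9 arrays, minus that gene's mean over the arrays, with genes grouped by cellular role and colour ending at 3 log2 units either way. The strongest colours are in 6 rows, Rab7b, Rab27b, Rab32, Rab37, Rab30 and Rab43, where the 3 CDC arrays on the left differ from the NK and IKDC arrays.

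The smallest range over the 9 arrays was 0.483 (Rab5a) and the largest 6.60 (Rab30), with a median of 1.33 against 1.42 over all tested genes. The range was below 1 for 13 of the 47 (24.9% of tested genes) and above 2 for 12 (27.9%). Of the 59 members, 36 were tested and at or above 5.31 on all 9 arrays. Another 4 tested members, Rab27b, Rab30, Rab39 and Rab7b, were below that level on all 3 arrays of at least 1 cell type. They passed the filter through the groups where they were high and so had to differ. The 12 members below the filter were Rab20, Rab25, Rab26, Rab33a, Rab39b, Rab3b, Rab3c, Rab40b, Rab42, Rab44, Rab4a and Rab9b, and 4 of them (Rab25, Rab26, Rab3b and Rab42) were below 5.31 on every array.

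The members that serve lysosome-related organelles, the secretory lysosomes of cytotoxic cells and the melanosomes of pigment cells, held differences in both directions. All 5 were tested: Rab27b was higher and Rab32 lower outside CDC, and Rab27a, Rab38 and Rab29 were not called. Rab27b, a paralog of the cytotoxic granule GTPase Rab27a that acts in granule release in platelets and mast cells, read 4.42 and 4.64 in spleen CDC and 4.19 in lymph node CDC. It read 9.06 and 9.28 in spleen NK and 8.85 in lymph node NK, and 7.67 and 8.26 in spleen IKDC and 7.88 in lymph node IKDC. The order was NK, then IKDC, then CDC in both organs, with no overlap between any pair of cell types.

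For Rab27b the spleen difference was 3.43 ± 0.31 for IKDC minus CDC, at least 6.31-fold (limma adjusted p = 0.00183), and 4.64 ± 0.31 for NK minus CDC, at least 14.6-fold (limma adjusted p = 0.000694). In lymph node the differences were 3.70 ± 0.44 and 4.66 ± 0.44. A second probe set gave 3.31 and 3.93, while a further one, which gave -0.03 and 0.70, was called in neither comparison. On spleen NK arrays 1 and 2, where Rab27b read 9.06 and 9.28, granulocyte, mast cell and basophil markers summed to 257 and 1719. Their part in the Rab27b difference was not tested.

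Rab27a, which docks cytotoxic granules and is lost in the form of Griscelli syndrome with immune deficiency, showed a smaller separation. It read 6.85 and 6.18 in spleen CDC, 7.96 and 7.37 in spleen NK, 7.46 and 7.60 in spleen IKDC, and 6.44, 7.98 and 7.11 in lymph node CDC, NK and IKDC. The 3 CDC arrays were the lowest of the 9, and NK and IKDC overlapped. The difference was 1.15 ± 0.35 for NK minus CDC (limma adjusted p = 0.0901, 0.0359 with the replicate number as a block) and 1.02 ± 0.35 for IKDC minus CDC (limma adjusted p = 0.141).

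Rab32 and Rab38 are close paralogs that carry enzymes to melanosomes, and Rab32 also acts on phagosomes that hold bacteria. Rab32 read 9.69 and 9.76 in spleen CDC and 10.27 in lymph node CDC, against 6.66 and 5.91 in spleen NK, 6.19 and 7.27 in spleen IKDC, 6.44 in lymph node NK and 6.71 in lymph node IKDC. CDC stood apart and NK and IKDC overlapped. The spleen difference was -3.00 ± 0.44 for IKDC minus CDC, 7.97-fold (limma adjusted p = 0.00861), and -3.44 ± 0.44 for NK minus CDC, 10.8-fold (limma adjusted p = 0.00420). The IKDC call was lost without spleen CDC array 1 (limma adjusted p = 0.0662) or array 2 (0.0833).

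Macrophage and monocyte markers also differed, with 12 genes summing to 13652 to 14003 in spleen CDC, 599 to 5844 in spleen NK and 2257 to 6772 in spleen IKDC. On the NK array with 5844 Rab32 was the lower of the pair, at 5.91. On the IKDC array with 6772 it was the higher of the pair, at 7.27. The lymph node sums were 28153 in CDC, 3184 in NK and 6660 in IKDC, where Rab32 read 10.27, 6.44 and 6.71. The part of those markers in the Rab32 difference was not tested. Rab38 read 8.66 and 8.09 in spleen CDC, 6.74 and 7.80 in NK, and 6.85 and 6.61 in IKDC, and 8.94, 7.06 and 7.77 in lymph node CDC, NK and IKDC. Its CDC arrays were the 3 highest, and the difference for IKDC minus CDC was -1.64 ± 0.42 (limma adjusted p = 0.0589, 0.0357 with the replicate block). A second Rab38 probe set gave -2.12 and was called (limma adjusted p = 0.0173), as was the mean over its probe sets (-1.88, limma adjusted p = 0.0204), and Rab38 was also called with a filter at the 60th percentile.

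Promoter letters were examined for the members of this class that the sequence table held, because Rab32 was high in CDC and Rab27a low. The windows, from RefSeq on GRCm38.p6, span 250 bases before to 50 after each start, and 48 of the 59 genes had 60 windows of 32851 in all. Rab30, Rab7b, Rab27b, Rab37 and Rab38 had none. The letters searched on both strands were GAGGAAGT, a PU.1-type ETS element, AGGTGTGA, a T-box element, TGTGGTT, a RUNX element, TCACGTGA, a lysosomal E-box, and an ETS-IRF composite element. They were chosen with the values known. The 250 bases before the Rab32 start (chr10:10558208-10558457, minus strand) and before 1 of the Rab27a starts (chr9:73044560-73044809, plus strand) are shown 5′ to 3′ with matches in capitals.
Rab32: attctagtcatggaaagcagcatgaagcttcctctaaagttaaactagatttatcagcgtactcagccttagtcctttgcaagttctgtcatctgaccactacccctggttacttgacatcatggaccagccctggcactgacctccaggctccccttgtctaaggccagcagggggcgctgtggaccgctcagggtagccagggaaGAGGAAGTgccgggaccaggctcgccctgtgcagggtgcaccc
Rab27a: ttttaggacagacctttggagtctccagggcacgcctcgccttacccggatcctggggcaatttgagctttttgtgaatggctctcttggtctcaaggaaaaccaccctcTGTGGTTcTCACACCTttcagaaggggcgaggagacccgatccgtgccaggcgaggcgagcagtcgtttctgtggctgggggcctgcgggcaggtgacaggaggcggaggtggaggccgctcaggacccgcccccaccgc

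The Rab32 capitals are the ETS element, which 3.20% of all windows hold, and the only other Rab gene with it was Rab2b. The Rab27a capitals are a RUNX element and, 1 base on, a T-box element on the opposite strand, which 5.27% and 1.28% of windows hold. The second Rab27a window held none of the letters searched. Of the 60 windows of Rab genes, 2 held the ETS element, 2 the RUNX element and 1 the T-box element. The RUNX element was also in Rab28, the composite element in Rab11b (2.72% of windows), and the E-box in Rab21, Rab24 and Rab5a (0.974%). None of these letters was in the 4 windows of Rab43. A match describes the letters of a window and does not show that a factor binds there.

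**Figure D2:**
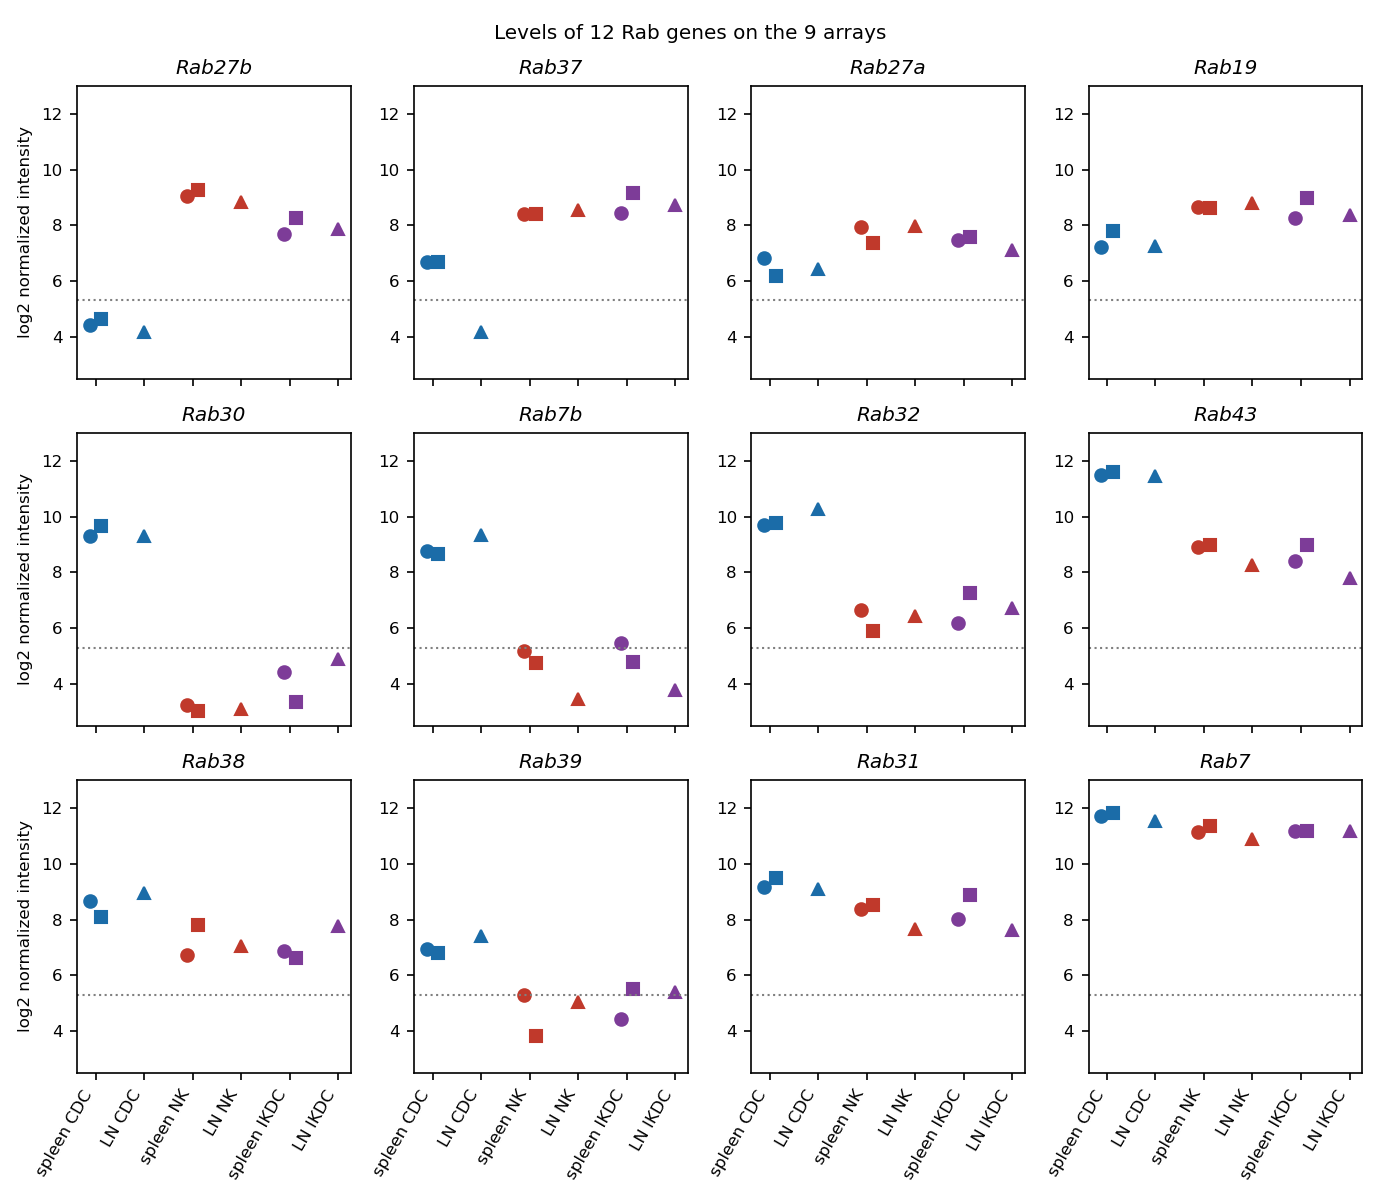
Log2 normalized intensity of 12 Rab genes in CDC (blue), NK (red) and IKDC (purple), where circles are spleen arrays 1, squares spleen arrays 2 and triangles lymph node arrays, and the dotted line is the filter level of 5.31. Rab27b and Rab37 are lowest on the CDC arrays, and Rab30, Rab7b, Rab32 and Rab43 are highest there in both organs.

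Of the regulated secretion members, 3 of 7 passed the filter and Rab37 was called. Rab37, found on secretory granules of mast cells and other secretory cells, read 6.69 and 6.70 in spleen CDC but 4.16 in lymph node CDC. The NK arrays read 8.41, 8.42 and, in lymph node, 8.56, and the IKDC arrays 8.43, 9.17 and 8.71. CDC lay below both, and NK and IKDC lay together. The spleen difference was 2.10 ± 0.32 for IKDC minus CDC, 4.29-fold (limma adjusted p = 0.00938), and 1.72 ± 0.32 for NK minus CDC, 3.30-fold (limma adjusted p = 0.0154).

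These Rab37 calls were fragile. The IKDC call was lost without spleen CDC array 1 (limma adjusted p = 0.0736) or 2 (0.0839), and the NK call without either CDC array (0.0964 and 0.110) or either NK array (0.0983 and 0.105). A second probe set gave 1.37 and 1.34 (limma adjusted p = 0.0942 and 0.0871). In lymph node the differences were larger, 4.55 ± 0.45 for IKDC and 4.39 ± 0.45 for NK. The interaction test of lymph node against spleen gave 2.45 ± 0.55 for IKDC minus CDC (limma adjusted p = 0.441) and 2.67 ± 0.55 for NK minus CDC (limma adjusted p = 0.613), so the organ effect did not pass. The 1 lymph node CDC array sets it.

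Rab3d, which matures secretory granules, read 7.15 and 6.74 in spleen CDC, 7.98 and 7.85 in NK and 7.60 and 7.45 in IKDC. The lymph node arrays of CDC, NK and IKDC read 7.46, 7.71 and 7.79, so CDC overlapped IKDC. The difference was 0.97 ± 0.27 for NK minus CDC (limma adjusted p = 0.0691, 0.0303 with the replicate block) and 0.59 ± 0.27 for IKDC minus CDC. Its other tested probe sets gave 1.86, 1.53 and 0.72 for NK and 1.67, 1.09 and 0.37 for IKDC, none of them called. With the mean over its probe sets Rab3d was called in NK minus CDC. Rab3a, which acts at synapses and in exocrine granules, ranged from 8.41 to 10.21, and both ends of that range were spleen IKDC arrays.

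In the late endosome and lysosome class, 4 of 5 members passed and Rab7b was lower outside CDC. Rab7b, which moves receptors between endosomes and the Golgi and limits Toll-like receptor signals in myeloid cells, read 8.77 and 8.65 in spleen CDC and 9.35 in lymph node CDC. It read 5.18 and 4.76 in spleen NK, 5.48 and 4.80 in spleen IKDC, and 3.46 and 3.77 in lymph node NK and IKDC. CDC stood apart, and of the other 6 arrays spleen IKDC array 1 alone was above the filter level. The spleen difference was -3.57 ± 0.38 for IKDC minus CDC and -3.75 ± 0.38 for NK minus CDC, both at least 10.6-fold (limma adjusted p = 0.00290 and 0.00166). A second probe set gave -4.42 and -5.17.

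Rab7, the general GTPase of late endosomes that drives fusion with lysosomes, had far smaller differences. Its 9 arrays lay between 10.89 and 11.82, with the 3 CDC arrays highest, and IKDC minus CDC was -0.57 ± 0.20 (limma adjusted p = 0.138). NK minus CDC was -0.52 ± 0.20 (limma adjusted p = 0.157). Rab9, which returns receptors from late endosomes to the Golgi, and the autophagy member Rab24 overlapped between the cell types.

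Of the ER and Golgi members, 14 of 16 passed, and Rab30 and Rab43 were lower outside CDC. Rab30, a Golgi GTPase, had the largest difference of the family. It read 9.32 and 9.65 in spleen CDC and 9.31 in lymph node CDC, against 3.23 and 3.05 in spleen NK and 3.10 in lymph node NK. IKDC read 4.43 and 3.35 in spleen and 4.91 in lymph node, below the filter level on every array and above NK in each pair of arrays.

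For Rab30 the spleen difference was -5.60 ± 0.46 for IKDC minus CDC and -6.34 ± 0.46 for NK minus CDC, both at least 18.1-fold (limma adjusted p = 0.00145 and 0.000736). Summed B cell markers were 2759 to 2885 on the spleen CDC arrays and 636 on the lymph node CDC array, where Rab30 read 9.31. The sums were 416 to 482 in spleen NK and 455 to 1776 in spleen IKDC, and 325 and 644 in lymph node NK and IKDC. Spleen IKDC arrays 1 and 2 had Cd22 at 10.64 and 8.41 and Rab30 at 4.43 and 3.35. In spleen CDC Cd22 read 11.02 and 11.14, Blk 8.01 and 8.04, and Ms4a1 7.12 and 7.68. Cd79a, Cd79b, Pax5 and Ebf1, at 3.32 to 6.61 there, did not exceed the highest of the other arrays. The part of the B cell markers in the Rab30 difference was not tested. Rab43, which in mice supports cross-presentation by the CD8α type of dendritic cell, read 11.48 and 11.62 in spleen CDC and 11.46 in lymph node CDC. The NK arrays read 8.92, 8.99 and, in lymph node, 8.26, and the IKDC arrays 8.43, 8.99 and 7.79.

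The 3 CDC arrays of Rab43 were within 0.2 log2 units of each other and apart from all others. Its spleen difference was -2.84 ± 0.27 for IKDC minus CDC, 7.15-fold (limma adjusted p = 0.00216), and -2.59 ± 0.27 for NK minus CDC, 6.03-fold (limma adjusted p = 0.00186). A second probe set gave -2.59 and -2.14, both called, and another gave -1.02 and -1.04, neither called. Lymph node differences were -3.67 ± 0.38 and -3.20 ± 0.38.

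Rab39, which acts between endosomes, autophagosomes and the Golgi, had the same shape with more spread. It read 6.94 and 6.81 in spleen CDC and 7.43 in lymph node CDC, 5.28, 3.83 and 5.04 in NK, and 4.42, 5.52 and 5.41 in IKDC, the last of each from lymph node. CDC stood apart. The difference was -2.32 ± 0.60 for NK minus CDC (limma adjusted p = 0.0531, 0.0367 with the replicate block) and -1.91 ± 0.60 for IKDC minus CDC (limma adjusted p = 0.111).

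Rab19, a little-studied member, leaned the other way, at 7.24, 7.79 and, in lymph node, 7.27 in CDC, 8.67, 8.63 and 8.79 in NK, and 8.28, 9.0 and 8.38 in IKDC. The differences were 1.12 ± 0.34 for IKDC minus CDC and 1.13 ± 0.34 for NK minus CDC (limma adjusted p = 0.102 and 0.0859, 0.0308 and 0.0255 with the replicate block). Rab1a, Rab1b and Rab2a, which carry traffic between the ER and the Golgi, stayed within 1 log2 unit over the 9 arrays.

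No early endosome member was called, of 6 tested of 7. Rab5a, Rab5b and Rab5c are the paralogs that fuse early endosomes. Rab5a had the narrowest range of the family, 9.85 to 9.97 in spleen CDC, 10.26 to 10.33 in NK and 9.98 to 10.08 in IKDC, and 9.90, 10.25 and 10.12 in lymph node. Its difference was 0.12 ± 0.21 for IKDC minus CDC and 0.39 ± 0.21 for NK minus CDC. Rab5b ranged from 4.92 to 6.00 and Rab5c from 7.91 to 9.39 with overlapping cell types.

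Rab31, which moves cargo from the Golgi to endosomes and acts on phagosomes, was highest on the CDC arrays, at 9.15, 9.50 and, in lymph node, 9.11. NK read 8.38, 8.52 and 7.67 and IKDC 8.03, 8.89 and 7.63. The differences were -0.87 ± 0.35 for NK minus CDC and -0.86 ± 0.35 for IKDC minus CDC, neither called. Rab20, a phagosome maturation factor, was below the filter, with levels from 4.10 to 6.06.

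None of the recycling and exocytic carrier members was called, of 12 tested of 14. Rab11a, the GTPase of recycling endosomes, ranged from 9.69 to 10.75, Rab8b, which acts in polarized exocytosis, from 10.99 to 12.03, and Rab10, which delivers surface receptors, from 10.61 to 11.36. All 3 overlapped between cell types. Rab15 had the widest spread of the tested members here, with 8.80 and 6.13 on the spleen IKDC arrays.

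Rab4a, the GTPase of fast recycling from early endosomes, was below the mean filter, yet its 3 CDC arrays lay below the other 6. It read 4.43, 2.88 and, in lymph node, 3.04 in CDC, 6.06, 6.13 and 6.21 in NK, and 6.35, 5.81 and 6.05 in IKDC. With no filter the difference was 2.42 for IKDC minus CDC and 2.44 for NK minus CDC (limma adjusted p = 0.0751 and 0.0618). With the mean over its probe sets it was 1.76 and 1.75 (limma adjusted p = 0.0418 and 0.0357). It was singled out after its values were seen. Its paralog Rab4b leaned the other way and was not called, with CDC arrays at 9.29, 9.32 and 9.46 and the others between 8.01 and 9.06.

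With the replicate number as a block, 11 of the 47 were called in NK minus CDC, the 6 above with Rab19, Rab23, Rab27a, Rab39 and Rab3d, against 21.2% of all tested genes under that fit. In IKDC minus CDC the block added Rab19 and Rab38, against 17.2% of all tested genes. In lymph node it added Rab19 and Rab31 in NK minus CDC, 8 of 47 in all, against 1324 of 10916 tested genes, and none in IKDC minus CDC (1041 of 10916).

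**Figure D3:**
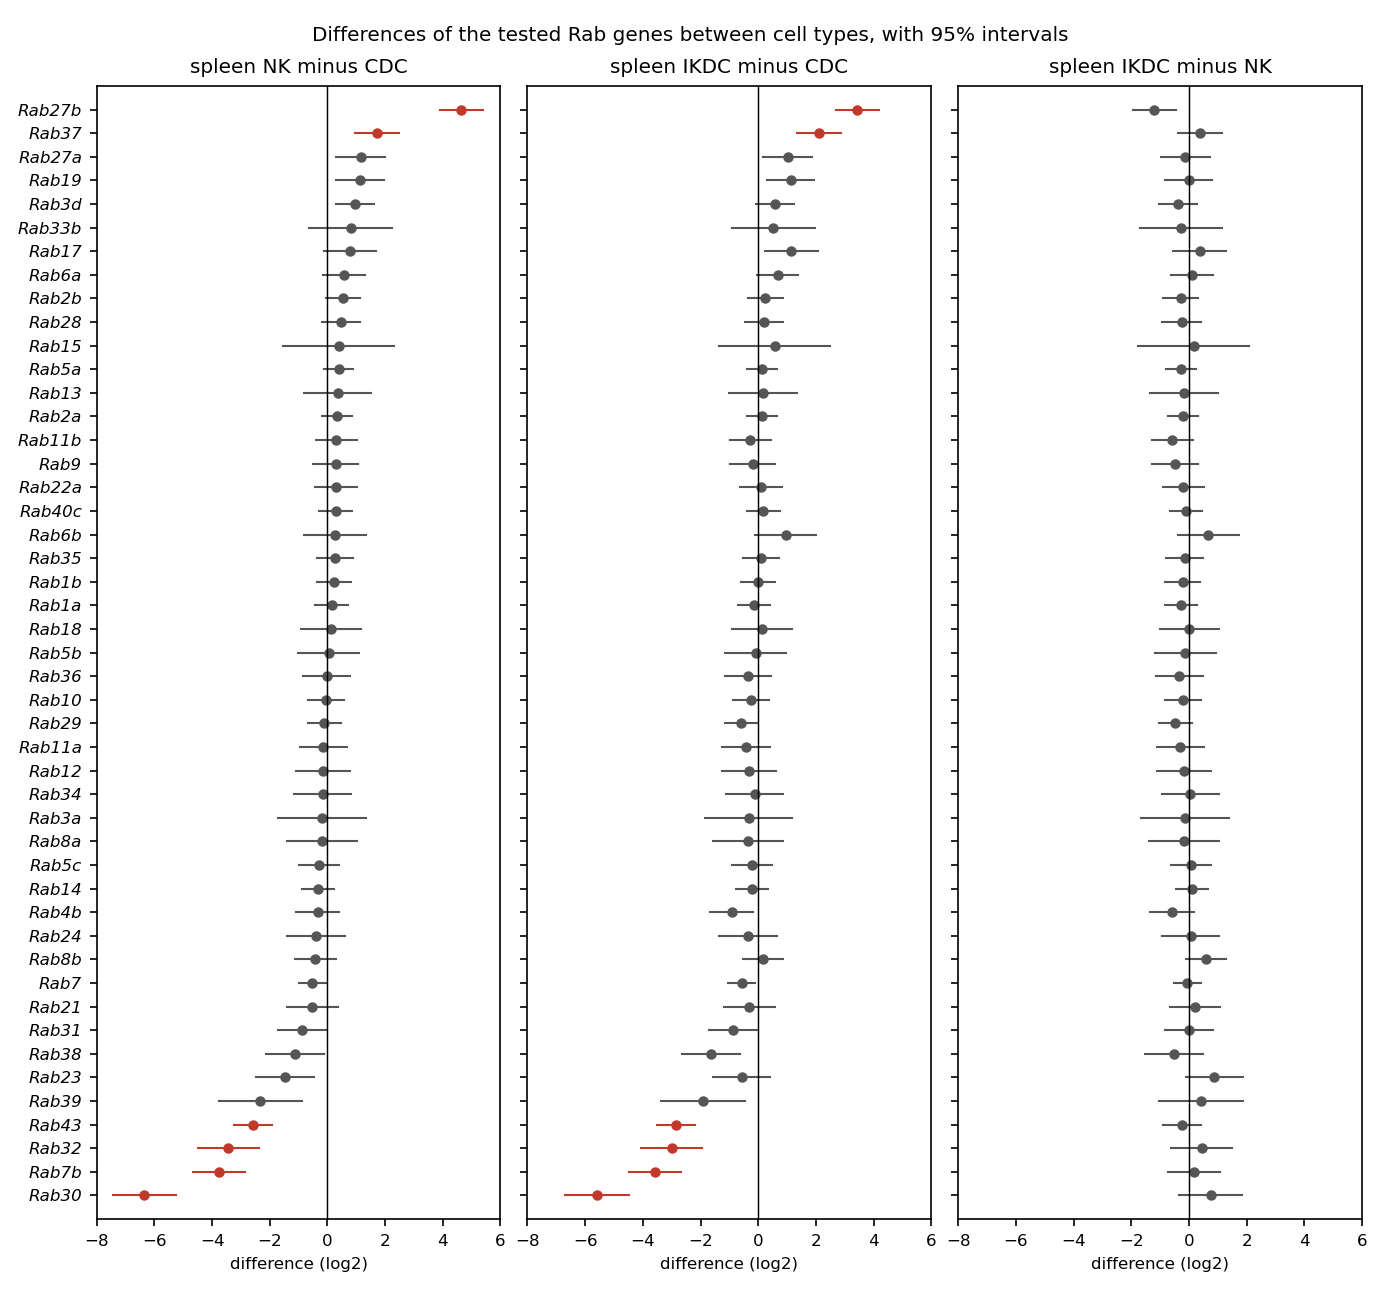
Spleen differences of the 47 tested Rab genes in log2 units, as NK minus CDC, IKDC minus CDC and IKDC minus NK, with points for the limma estimate, lines for its 95% interval and red for called genes. The same 6 genes are red in the first and second panels, and no gene is red in the third, where Rab27b alone has an interval that excludes 0.

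No Rab gene was called between IKDC and NK, in spleen (0 of 47, with 0.0% of all tested genes called) or in lymph node (0 of 47, with 0.055% called). In spleen 1 of 47 had an unadjusted p below 0.05, against 598 of 10916 tested genes. The median difference, spleen IKDC minus NK, was -0.14 over the Rab genes and -0.01 over all tested genes, and 46 of 47 lay under 2-fold against 94.6% of tested genes. The 95% interval lay wholly within 1 log2 unit of 0 for 18 of the 47, so a 2-fold difference could not be set aside for the rest. Spleen NK array 1 read near the spleen IKDC arrays in Itgax, as given above. The part of this in the comparison was not tested.

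The member with that p was Rab27b, lower in IKDC by the pairwise values -1.38 for spleen arrays 1, -1.03 for spleen arrays 2 and -0.97 for lymph node. The spleen difference was -1.21 ± 0.31, with a 95% interval from -1.95 to -0.46, and it did not pass adjustment (limma adjusted p = 0.857, 0.343 with the replicate block). Summed NK markers were also lower in spleen IKDC, at most 31454 against at least 47961 in NK. Their part in the difference was not tested.

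Rab30 was higher in IKDC than NK by 1.20, 0.30 and 1.81 in the same 3 pairs, with every level below the filter. Rab37 was higher by 0.01, 0.75 and 0.16, and Rab23, a regulator of cilium signalling, by 0.21, 1.56 and 0.10. Rab1a (-0.19, -0.37 and -0.14) and Rab5a (-0.28, -0.25 and -0.13) were lower in each pair. Of the 47, 6 were higher and 6 lower in all 3 pairs, against 15.7% and 17.1% of tested genes.

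**Figure D4:**
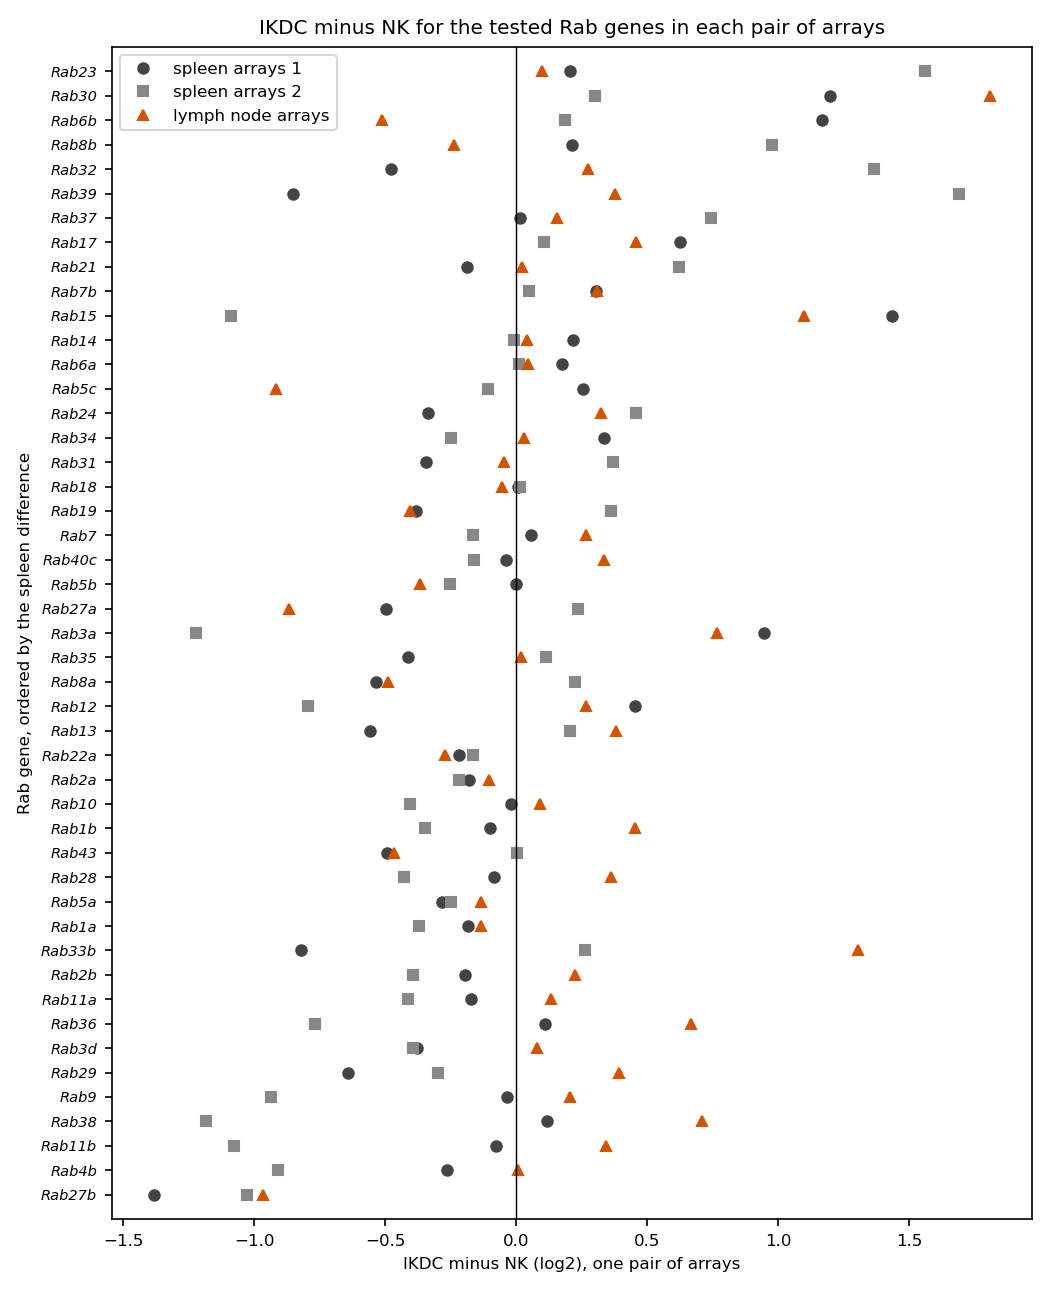
IKDC minus NK in log2 units for each tested Rab gene, 1 point for spleen arrays 1 (circle), 1 for spleen arrays 2 (square) and 1 for the lymph node arrays (triangle), ordered by the spleen difference. Rab27b at the bottom lies between -1.38 and -0.97 in the 3 pairs, and most other genes have points on both sides of 0.

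Between the organs, over the 3 cell types, 0 of 47 Rab genes were called and 0.376% of tested genes, with 9 of 47 and 1806 of 10916 at an unadjusted p below 0.05. The median difference, lymph node minus spleen, was -0.06 against -0.02 over all tested genes. All 3 lymph node arrays and spleen arrays 2 were female by Xist and Eif2s3y, and spleen arrays 1 were male. Organ and sex are therefore partly mixed in every lymph node minus spleen difference given here and in the next paragraph. Rab2b, which acts between the ER and the Golgi, was higher in lymph node by 1.37 in CDC, 0.34 in NK and 0.86 in IKDC, a mean of 0.86 ± 0.18 (limma adjusted p = 0.103). Rab14, which acts between endosomes and the Golgi, was higher by 0.81, 0.65 and 0.59, a mean of 0.68 ± 0.16 (limma adjusted p = 0.140), but 3 of its other probe sets gave the opposite sign.

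Rab23 was higher by 0.17, 1.48 and 0.70 in the same order of cell types. The early endosome member Rab22a was lower in lymph node in all 3 cell types, with a mean of -0.61 ± 0.21, as were Rab31 (-0.61 ± 0.25) and Rab43 (-0.57 ± 0.19), none of them called. For each of these 3 genes at least 1 other probe set gave the opposite sign. Rab6b, a Golgi member, read 7.66 in lymph node CDC and 5.33 and 4.78 in spleen CDC, and its organ interaction for IKDC minus CDC was -2.84 ± 0.77 (limma adjusted p = 0.606). No organ interaction of a Rab gene was called, where 0.0% of tested genes were.

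The genes that act with or on Rab proteins were taken from 6 lists with 177 genes on the array, 158 of them tested. In spleen IKDC minus CDC 21 were called and in NK minus CDC 26, against the 10.3% and 13.5% of tested genes, and 34 and 40 with the replicate block, against 17.2% and 21.2%. None was called in spleen IKDC minus NK. The share called was highest among the Rab27 effectors and granule exocytosis genes and the TBC proteins.

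Of 19 tested Rab27 effectors and granule exocytosis genes, 2 were higher and 4 lower in IKDC than CDC, and 5 were higher and 4 lower in NK. The higher ones included Sytl2 and Sytl1, synaptotagmin-like proteins that bind Rab27 on granules. Sytl2 read 5.42 and 5.17 in spleen CDC, 9.75 and 10.27 in NK and 8.88 and 9.47 in IKDC, and in lymph node 6.02, 9.82 and 8.91. Its order was that of Rab27b: NK, IKDC, CDC. The difference was 3.88 ± 0.33 for IKDC minus CDC (limma adjusted p = 0.00161) and 4.72 ± 0.33 for NK minus CDC (limma adjusted p = 0.000736).

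Sytl1 differed by 3.11 ± 0.43 and 3.32 ± 0.43, from levels of 3.48 and 3.54 in spleen CDC (limma adjusted p = 0.00657 and 0.00426). It read 3.22 in lymph node CDC. With every CDC array below 5.31, Sytl1 passed the filter through the groups where it was high and so had to differ. The IKDC call was lost in 2 of 6 fits that left out 1 spleen array (highest limma adjusted p 0.0596). Rph3al, a further Rab27 and Rab3 effector, was 2.74 ± 0.59 higher in NK (limma adjusted p = 0.0287), a call kept in 3 of 6 such fits. The lower ones included Myo5a, the motor that carries melanosomes, at -2.50 ± 0.26 and -3.20 ± 0.26, Lyst, the lysosome size regulator lost in Chediak-Higashi syndrome, at -2.18 ± 0.35 and -2.68 ± 0.35, and the membrane fusion protein Stx3, at -1.78 ± 0.38 and -1.85 ± 0.38. Unc13d (1.21 ± 0.27) and Stx11 (1.36 ± 0.32), needed for granule fusion, were higher in NK than CDC (limma adjusted p = 0.0317 and 0.0399). In IKDC they were not called, and the Stx11 partner Stxbp2 was called in neither. In lymph node, NK minus CDC was 0.08 ± 0.46 for Stx11 and 0.92 ± 0.38 for Unc13d, and Lyst differed by -0.77 ± 0.49 in IKDC and -0.26 ± 0.49 in NK, none of them called.

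Of 36 tested TBC domain proteins, which switch Rabs off, 2 were higher and 6 lower in IKDC than CDC, and 3 higher and 7 lower in NK. Tbc1d8 read 10.38 and 10.78 in spleen CDC, 5.73 and 5.56 in NK and 5.98 and 6.01 in IKDC. Its difference was -4.58 ± 0.27 for IKDC minus CDC (limma adjusted p = 0.00129). In lymph node CDC read 10.97 and NK 6.20, but IKDC read 9.83.

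That IKDC array, with its plasmacytoid dendritic cell markers, also had Myo5a at 8.26 against 6.31 to 6.56 in spleen IKDC and Rabgap1l at 11.28 against 9.31 to 9.64. The lymph node difference IKDC minus NK was 3.64 ± 0.38 for Tbc1d8 (limma adjusted p = 0.0598) and 2.10 ± 0.36 for Myo5a (limma adjusted p = 0.192), and neither passed. The part of the plasmacytoid cells in these values was not tested. Rab30, Rab32, Rab43 and Rab7b were 4.91, 6.71, 7.79 and 3.77 on that array, far below the lymph node CDC array.

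Tbc1d9 differed by -4.13 ± 0.53 in IKDC and -6.08 ± 0.53 in NK, and Tbc1d4, a regulator of Rab8 and Rab10 in glucose transporter traffic, by -4.95 ± 0.51 and -5.51 ± 0.51. Tbc1d9 was below 5.31 on every NK array (3.97 and 3.99 in spleen, 3.67 in lymph node). It passed the filter through the groups where it was high and so had to differ. The higher ones were Tbc1d2b (2.45 ± 0.35 and 2.38 ± 0.35), Rabgap1l (1.99 ± 0.27 and 1.96 ± 0.27) and, in NK, Tbc1d10c (1.70 ± 0.27). Rabgap1l was at 9.95 in lymph node CDC against 7.44 and 7.53 in spleen CDC, so in lymph node NK minus CDC was 0.12 ± 0.38.

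**Figure D5:**
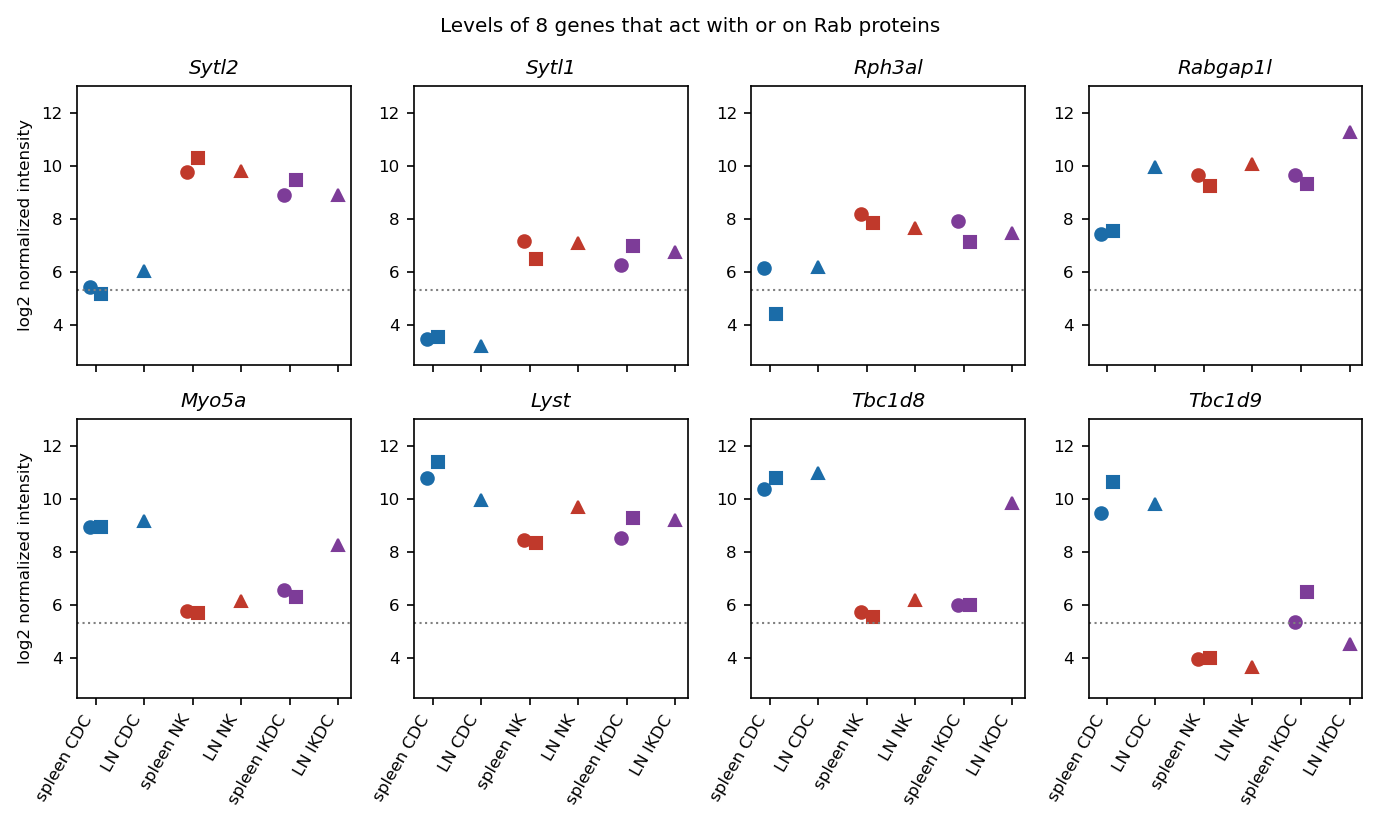
Log2 normalized intensity of 8 genes that act with or on Rab proteins, in CDC (blue), NK (red) and IKDC (purple), where circles are spleen arrays 1, squares spleen arrays 2 and triangles lymph node arrays, and the dotted line is the filter level of 5.31. Sytl2 and Sytl1 are lowest on the CDC arrays, and for Tbc1d8 the lymph node IKDC array (9.83) lies near CDC while the spleen IKDC arrays lie near NK.

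The other lists had few calls. Of 40 exchange factors, 2 were higher and 2 lower in IKDC than CDC and 1 and 1 in NK, led by Dennd4c, higher by 2.28 ± 0.32 and 2.30 ± 0.32, and Dennd3, lower at -1.67 ± 0.29 and -1.33 ± 0.29. In lymph node the Dennd3 differences were 0.06 ± 0.41 and -0.08 ± 0.41. Of 30 Rab5 and Rab7 effectors and tethers, none was higher, and 2 were lower in IKDC and 1 in NK. Rufy1 was lower in both (-1.25 ± 0.27 and -1.09 ± 0.27) and the Rab7 adaptor Fyco1 in IKDC (-1.30 ± 0.25). Of 25 Rab11, Rab8 and Golgi Rab effectors, 1 was lower in IKDC and 2 in NK, with Mical3 lower in both (-2.62 ± 0.62 and -2.83 ± 0.62). Mical3 was below 5.31 on every IKDC array (4.93 and 4.19 in spleen, 4.88 in lymph node). It too passed the filter through the groups where it was high and so had to differ. Of 8 prenylation and escort factors, Rabac1 (1.44 ± 0.34) and Rabif (1.14 ± 0.29) were higher in NK and none was called in IKDC. Among the partner genes named with calls, Sytl2, Myo5a, Tbc1d4 and Tbc1d8 kept both spleen calls in all 6 fits that left out 1 spleen array, and Lyst and Tbc1d9 lost 1 call in 1 fit. The others lost at least 1 of their calls in 1 to 5 of those fits.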

How the data were processed

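The deposited values are linear Affymetrix signal intensity per probe set, which the authors had scaled (the mean between the 2nd and 98th percentiles was 149.95 to 149.96 on every array); the software behind them is not given in these sources. Per the labels, RNA was extracted with TRIZOL and RNeasy and cRNA made from 6 µg. Of 45101 probe sets, 64 controls were removed, and the 34945 with 1 symbol gave 18193 genes. Median intensity ranged from 23.4 to 41.3. Intensities plus 6.494, their 20th percentile, were log2-transformed, quantile normalized and fitted in limma 3.58.1 (R 4.3.3, lmFit, eBayes with trend) with 6 groups, 3 residual and 3.44 prior degrees of freedom, two-sided with Benjamini-Hochberg adjustment in each of 10 comparisons. The number of arrays limits the precision. The steps were run on simulated data with independent noise on each array. That noise lacked the shared deviation of same-numbered arrays given below, so the run cannot show its effect on the p-values.

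Arrays with the same replicate number deviated together (r across genes 0.412 between CDC and NK, 0.529 between CDC and IKDC and 0.485 between NK and IKDC), so fits with that number as a block were also made; the labels do not say what it marks. Members, lists and motifs were chosen with earlier results of these data known. Array values are given for up to 8 called members per direction without overlap, for the 3 largest differences per direction of 1 sign in all pairs (IKDC against NK) or all cell types (organ), and for 18 members chosen by function; other members shown array by array were added after their values were seen. Each list gives its 3 largest called differences per direction, and Unc13d, Stx11 and Stxbp2 were added by function. Alternatives were scaling, offsets of 1 and 32, filters, probe set choice, spread settings, additive model, spleen alone and leaving out arrays.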

Additional observations from a re-analysis of the deposited data

How the results depend on the processing

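Over the settings tried, the count of called Rab genes stayed at 4 to 12 in each comparison with CDC and at 0 between IKDC and NK, between organs and for organ interactions. An additive model of cell type and organ, which has more residual degrees of freedom, called 10 in IKDC minus CDC and 12 in NK minus CDC in either organ. The replicate block called 11 in spleen NK minus CDC. Besides the calls named with it in the text, the block changed no other call of a Rab gene. Leaving out 1 spleen array gave 4 to 8 in spleen IKDC minus CDC, 5 to 8 in spleen NK minus CDC, 4 to 6 in lymph node IKDC minus CDC and 5 to 6 in lymph node NK minus CDC. Rab27b and Rab43 were called in all 19 settings with a value, Rab7b in all 18 and Rab30 in all 17, in both spleen comparisons. Rab30 was below the filter with an offset of 1 and, like Rab7b, with a filter at the 60th percentile. Rab27b, Rab7b and Rab30 passed the filter through the groups where they were high, so their repeated calls are limited support. Rab32 was called in 17 of 19 for IKDC, and Rab37 in 17 of 19 for IKDC and 15 of 19 for NK.

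The family median for IKDC minus CDC was -0.221 with values as deposited, -0.252 after a shift to the same 75th percentile and 0.0974 with no filter; for IKDC minus NK it was -0.0815 with no filter. With 1 spleen array left out, IKDC minus CDC ran from -0.553 to 0.396 for Rab5b, -0.485 to 0.0618 for Rab5c, -0.875 to 0.0162 for Rab11a and -0.202 to 0.566 for Rab8b. NK minus CDC ran from -0.426 to 0.523 for Rab5b, -0.582 to 0.310 for Rab11a and -0.293 to 0.206 for Rab10. Signs turned only for differences that were not called, apart from 1 Rab27b probe set (-0.0253, IKDC minus CDC). In IKDC minus CDC, single probe sets gave 0.181, 0.0129 and 0.496 for Rab14 and 0.0900 for Rab10, and Rab8b was -0.115 as deposited and -0.146 after the shift. In NK minus CDC, Rab5b was -0.233 for the mean over probe sets and -0.514 for 1 of them, Rab14 0.492 and Rab10 0.0347 for 1 probe set, and Rab10 0.0308 in the additive model. Rab1a was 0.160 for 1 probe set in IKDC minus NK. Between organs single probe sets gave -0.0056, -0.495 and -0.196 for Rab14, 0.104 for Rab31, 0.487 for Rab22a, and 0.157 and 0.232 for Rab43. The cause was not tested.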
